A study of Mus musculus with 30 samples.

Results

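Described here are 7 genes for surface proteins of lymphocytes, Cd69, Cd44, Cd83, Cd24a, Cd200, Tfrc and Cd7, taken by symbol from the 19938 genes of the arrays, each with 1 probe set. Several were selected on their differences between naive CD8+ T cells (TN) stimulated together with memory cells and TN cells stimulated by themselves, at 18 h. Values that involve TN cells at 18 h are therefore a description and carry no test. All cells came from the spleen of C57BL/6 mice aged 6-12 weeks and carried the Pmel-1 transgene (Pmel-1 Tg), a single T cell receptor. TN cells were Ly5.1 and TMem cells Ly5.2, and the TMem cells were memory cells made by differentiation in vitro, not memory cells taken from an animal. Stimulation was by antibodies against CD3 and CD28 with IL-2, given to each cell type by itself (alone) or to both in 1 culture (mix), and cells were sorted by flow cytometry. The 10 groups of 3 arrays were TN alone and TMem alone at 0 h without stimulation, both alone at 18 h and 96 h, and TN mix and TMem mix at 18 h and 96 h. The repeats are described as biological, and p-values measure the spread between these samples.

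T cells that meet antigen change the proteins on their surface within hours and keep some of these changes as memory cells. CD69 appears early, binds the receptor S1PR1 and so holds cells in lymphoid tissue. CD44, a receptor for hyaluronan, stays raised on antigen-experienced cells, and the transferrin receptor encoded by Tfrc rises on dividing cells and takes up iron. CD83 and CD200 belong to the immunoglobulin superfamily. CD83 is found on activated lymphocytes and mature dendritic cells and stabilizes MHC class II, and CD200 is the ligand of an inhibitory receptor on myeloid cells. CD24, the heat-stable antigen encoded by Cd24a, is a small glycoprotein held in the membrane by a lipid anchor, and CD7 is an immunoglobulin-like protein of the T cell lineage.

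The genes lie on mouse chromosomes 6 (Cd69), 2 (Cd44), 13 (Cd83), 10 (Cd24a), 16 (Cd200 and Tfrc) and 11 (Cd7). RefSeq promoter sequences (GRCm38.p6) were at hand for 3 of the 7, Cd44, Cd200 and Tfrc, and all 3 are shown. Each sequence is 243 bases long, is printed 5′ to 3′ on the strand of the gene and ends before the gene's start. The Cd44 sequence is chr2:102901673-102901915 (minus strand), the Cd200 sequence chr16:45409061-45409303 (minus strand) and the Tfrc sequence chr16:32608646-32608888 (plus strand). Capitals mark matches, on either strand, to the motifs searched.
Cd44: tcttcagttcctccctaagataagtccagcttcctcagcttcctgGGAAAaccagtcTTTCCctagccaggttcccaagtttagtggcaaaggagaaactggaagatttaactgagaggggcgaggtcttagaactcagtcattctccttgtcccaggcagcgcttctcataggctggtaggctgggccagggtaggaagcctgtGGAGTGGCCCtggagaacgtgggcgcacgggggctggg
Cd200: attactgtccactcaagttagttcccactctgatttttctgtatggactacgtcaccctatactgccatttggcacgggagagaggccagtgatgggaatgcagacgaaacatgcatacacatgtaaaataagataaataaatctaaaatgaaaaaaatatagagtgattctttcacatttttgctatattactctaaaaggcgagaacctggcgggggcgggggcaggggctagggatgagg
Tfrc: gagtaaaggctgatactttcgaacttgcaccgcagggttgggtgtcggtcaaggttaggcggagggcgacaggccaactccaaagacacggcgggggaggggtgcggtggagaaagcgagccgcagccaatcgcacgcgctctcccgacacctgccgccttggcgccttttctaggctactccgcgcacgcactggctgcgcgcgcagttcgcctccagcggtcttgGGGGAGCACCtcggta

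The motifs were AP-1 (TGANTCA), CRE (TGACGTCA), the NFAT core (GGAAA), the E-box (CACGTG) and a spaced NF-kB pattern of GGG and CC with 5 bases of any kind between them. The Cd44 sequence held the NFAT core 2 times, 205 and 193 bases before the start, and the NF-kB pattern 1 time, 45 bases before it. These distances assume a fixed gap between the printed sequence and the start. For Cd44 the assumed gap is a few bases larger than the gap given by the gene's coordinates. The Tfrc sequence held the NF-kB pattern 1 time, 23 bases before the start, and the Cd200 sequence held none of the motifs. None of the 3 held AP-1, CRE or the E-box, which says only that these letters are not in these windows. Among 27018 promoters of the same length, the NFAT core was found in 54.5%, the NF-kB pattern in 44.2%, AP-1 in 6.73%, the E-box in 5.81% and CRE in 1.52%. The content of G and C was 42.8% for Cd200, 55.6% for Cd44 and 65% for Tfrc.

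The arrays were checked against their labels first. All 8 T cell genes measured, among them Cd3e and Cd8a, lay above the median of the array on 30 of 30 arrays. Their levels differed between groups (limma, adjusted p under 0.05). At 0 h 1 was higher and 5 lower in TMem than in TN, beside 18.4% and 17.5% of all genes. In TMem alone 0 were higher and 7 lower at 18 h than at 0 h, beside 18% and 17.3%. From 18 h to 96 h there 5 rose and 1 fell, beside 14.6% and 9.87%. Spread was largest in TMem alone at 0 h, where 6 of the 7 genes had their largest SD, and TN alone repeat 1 at 0 h correlated with its group at 0.978 and 0.982, against 0.995 between the others. All mice are labelled female, but the Y-linked gene Eif2s3y lay between 8.82 and 9.51 on the 15 TMem arrays, where Xist, the transcript of the silenced X chromosome, lay between 4.99 and 6.02. In TN alone at 0 h and 96 h Eif2s3y lay between 3.997 and 4.58. It lay between 8.09 and 8.50 in both TN groups at 18 h and between 7.34 and 7.89 in TN mix at 96 h, all with Xist at 10.9 or above. TMem and TN groups, and TN mix and TN alone at 96 h, thus differed in these transcripts as well, which cannot be told apart from cell type and culture here. TN alone at 18 h also differed from TN alone at 0 h and at 96 h in Eif2s3y, which cannot be told apart from time. Values below are log2 levels, differences are log2 differences of group means, and SD are over 3 arrays. A group mean under the mean lower quartile of its arrays (5.85 to 5.98) is called near background.

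**Figure D1:**
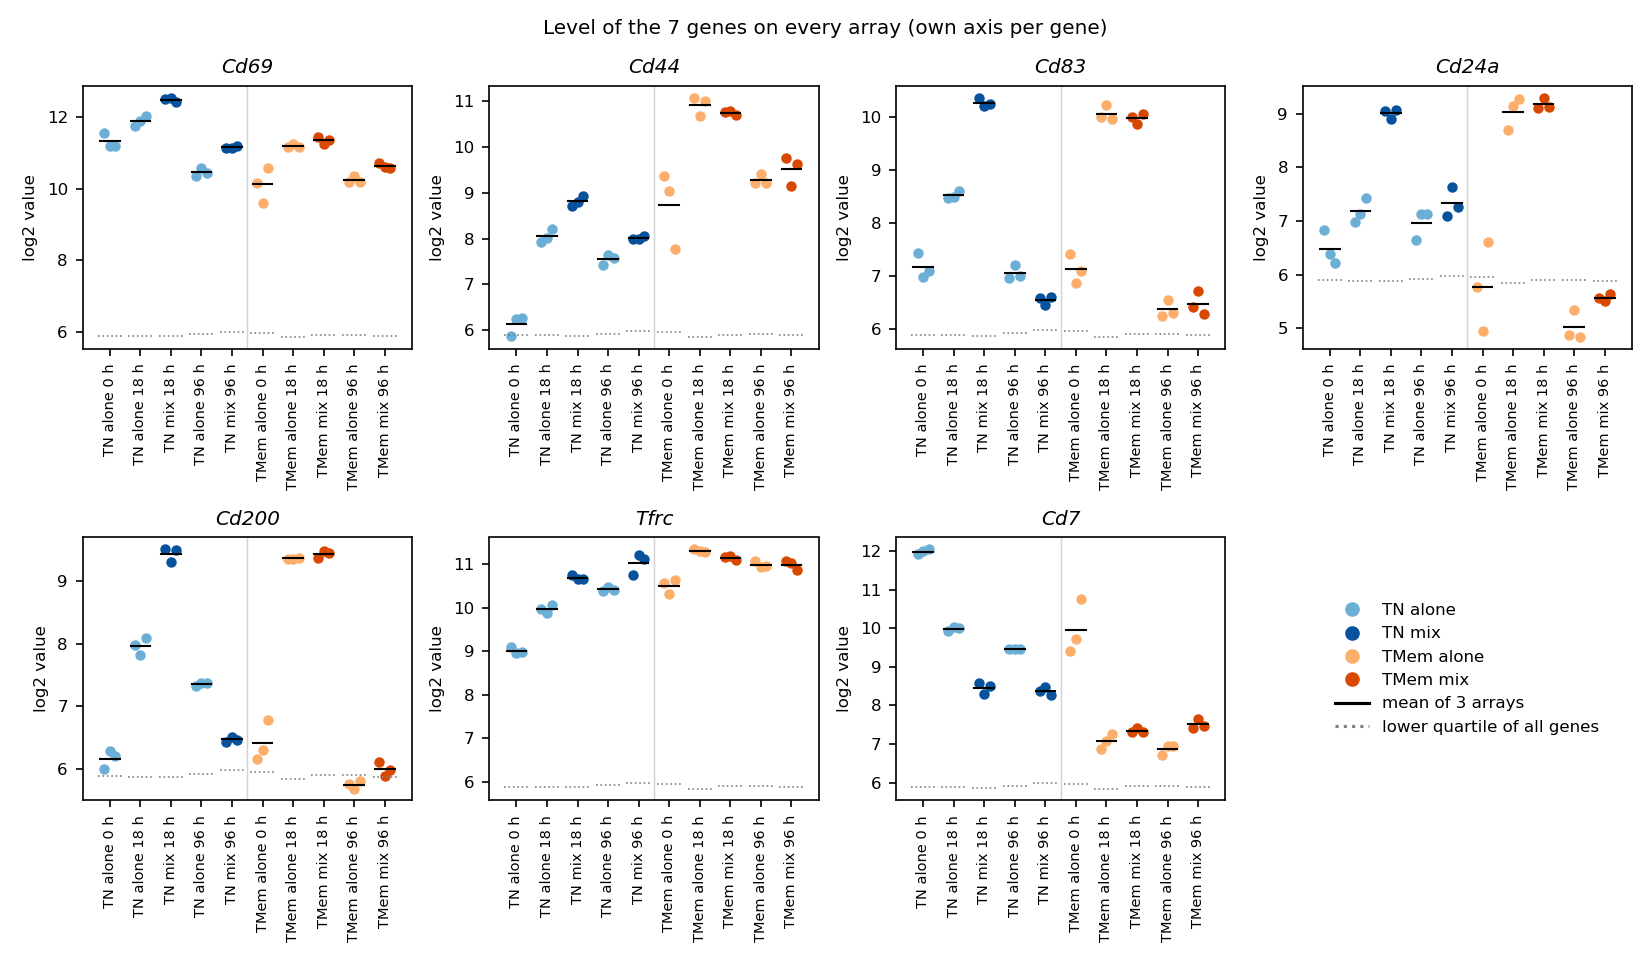
Log2 level of each of the 7 genes (1 panel each, with its own vertical axis) on each of the 30 arrays, in 10 groups of 3, as points with the group mean as a black line and the mean lower quartile of the arrays as a dotted line. Cd83, Cd24a and Cd200 were highest at 18 h, Cd44 and Tfrc were lowest in TN alone at 0 h, and Cd7 was highest there.

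At 18 h, 6 of the 7 genes were higher in TN mix and Cd7 was lower, relative to TN alone. The arrays of the groups did not overlap for any of the 7, which was so for 34.1% of all genes. Cd24a read 6.98, 7.12 and 7.43 in TN alone and 9.06, 8.90 and 9.07 in TN mix, a difference of 1.83. Cd83 read 8.47, 8.49 and 8.60 in TN alone and 10.35, 10.20 and 10.24 in TN mix, a difference of 1.74. Cd200 read 7.98, 7.83 and 8.10 in TN alone and 9.50, 9.30 and 9.50 in TN mix, a difference of 1.46. These 3 genes were thus higher by 3.56-fold, 3.35-fold and 2.76-fold. Cd7 read 9.92, 10.03 and 10.01 in TN alone and 8.58, 8.29 and 8.49 in TN mix, a difference of -1.53, or 2.89-fold lower. Cd44 differed by 0.77 (8.05 ± 0.15 and 8.82 ± 0.11), Tfrc by 0.71 (9.97 ± 0.10 and 10.69 ± 0.05) and Cd69 by 0.60 (11.89 ± 0.13 and 12.49 ± 0.06). Cd69 was high without any stimulus too, at 11.57, 11.21 and 11.19 in TN alone at 0 h, above the values of TN alone at 96 h. The arrays hold RNA of many cells, so fewer cells with a transcript and less of it per cell cannot be told apart, here and below.

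At 96 h in TN cells, on arrays other than those of the stated selection, 2 of 7 genes were called higher in TN mix and 3 lower (limma, adjusted p under 0.05). The shares of all genes were 7% and 3.62%, and 10.6% in either direction. Earlier results of these data were known when the genes were chosen, and all groups share the estimate of the spread, so these calls are not an independent test. Cd69 and Tfrc rose and Cd7 fell, as at 18 h. Cd83 and Cd200 fell, opposite to their direction at 18 h. The median difference of the 7 genes was 0.36, beside 0.05 for all genes. It was the value of Cd24a, which was not called, and with genes going both ways it shows no common shift.

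Cd200 at 96 h read 7.32, 7.38 and 7.37 in TN alone and 6.44, 6.51 and 6.47 in TN mix. It fell by 0.88 (SE 0.11, limma adjusted p = 1.76e-06), or 1.84-fold, and the groups were well apart. Cd83 read 6.96, 7.198 and 7.003 in TN alone and 6.59, 6.45 and 6.61 in TN mix, and fell by 0.50 (SE 0.13, limma adjusted p = 0.00886). That call was lost without TN alone repeat 2 (adjusted p = 0.0647) or without TN mix repeat 2 (adjusted p = 0.0519). For both genes, then, TN mix held the highest of the 4 TN groups after stimulation at 18 h and the lowest at 96 h.

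Cd7 at 96 h read 9.47, 9.465 and 9.459 in TN alone and 8.38, 8.48 and 8.26 in TN mix. It fell by 1.09 (SE 0.18, limma adjusted p = 1.12e-04), or 2.13-fold. Cd69 read 10.37, 10.59 and 10.43 in TN alone and 11.15, 11.15 and 11.20 in TN mix, and rose by 0.70 (SE 0.14, limma adjusted p = 0.00124). For both genes the groups did not overlap. Tfrc read 10.39, 10.48 and 10.42 in TN alone and 10.75, 11.20 and 11.12 in TN mix, and rose by 0.59 (SE 0.10, limma adjusted p = 6.52e-05), with TN mix repeat 1 nearest to TN alone.

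Cd44 and Cd24a were not called in TN cells at 96 h. Cd44 read 7.44, 7.63 and 7.59 in TN alone and 7.98, 7.999 and 8.07 in TN mix, without overlap, a difference of 0.46 (95% interval -0.00 to 0.93, limma adjusted p = 0.234). Cd24a read 6.64, 7.14 and 7.12 in TN alone and 7.09, 7.63 and 7.26 in TN mix, with overlap, a difference of 0.36 (95% interval -0.16 to 0.88, limma adjusted p = 0.442). Same-numbered repeats deviated together in this comparison, and with the replicate block in a fit of only these 6 arrays, a choice made after the values were known, both genes were called (Cd44 at an adjusted p of 0.00572, Cd24a at 0.0333). Over all alternatives the adjusted p ran from 0.00572 to 0.39 for Cd44 and from 0.0333 to 0.729 for Cd24a. Cd44 had an SD of 0.85 in TMem alone at 0 h, which enters the fit of all groups, against 0.10 in TN alone and 0.04 in TN mix at 96 h.

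Transcripts known from other cells moved with this comparison. Of 5 markers of mast cells and basophils 4 were lower in TN mix, with Cpa3 (-1.73), Mcpt8 (-1.32) and Kit (-1.26) among them. Their mean level lay between 6.67 and 6.95 on the arrays of TN alone and between 5.71 and 5.99 on those of TN mix, with 2 of the 5 near background in both. Of 12 markers of macrophages, monocytes, dendritic cells and neutrophils 2 were lower, Lyz2 (-2.79) and Fcer1g (-1.36), with mean levels of 6.34 to 6.42 in TN alone and 5.96 to 6.17 in TN mix. Of 7 B cell markers 1 was lower, Cd79b (-0.70), with mean levels of 6.23 to 6.27 and 6.21 to 6.35. Ncr1 of 5 NK cell markers, Foxp3 of 4 CD4 T cell markers and Pf4 of 5 erythroid and platelet markers were lower too, and no marker on these lists was higher. Some of the 7 genes, such as Cd83, Cd200 and Cd24a, are known in such cells as well. The part of these transcripts in the differences was not tested. At 18 h the mast cell and basophil markers lay between 5.51 and 5.56 in TN alone and between 5.41 and 5.53 in TN mix, with 4 of the 5 near background in both groups.

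In TMem cells at 18 h, 0 of 7 genes were called by limma between mix and alone, beside 0.0301% of all genes, and 0 had an unadjusted p under 0.05, beside 3.03%. Cd7 had the largest difference, with 6.87, 7.09 and 7.27 in TMem alone and 7.32, 7.42 and 7.31 in TMem mix (0.27, 95% interval -0.10 to 0.65). Tfrc read 11.34, 11.30 and 11.29 in TMem alone and 11.16, 11.19 and 11.11 in TMem mix (-0.16, 95% interval -0.35 to 0.04). These were the 2 of 7 genes whose groups did not overlap, which was so for 12.1% of all genes. The interval was -0.35 to 0.18 for Cd83, -0.16 to 0.30 for Cd200 and -0.38 to 0.65 for Cd24a.

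At 96 h, 0 of 7 genes were called by limma in TMem mix against TMem alone, beside 1.12% of all genes, and 4 had an unadjusted p under 0.05, beside 7.14%. Those 4 were Cd69, Cd24a, Cd200 and Cd7, all higher in TMem mix without overlap, beside 21.5% of all genes without overlap. Cd7 read 6.73, 6.95 and 6.96 in TMem alone and 7.42, 7.65 and 7.47 in TMem mix (0.63, 95% interval 0.26 to 1.01, limma adjusted p = 0.112). Cd69 read 10.20, 10.35 and 10.18 in TMem alone and 10.71, 10.62 and 10.58 in TMem mix (0.39, 95% interval 0.09 to 0.69, limma adjusted p = 0.354). The difference of Cd200 (0.24) starts from near background in TMem alone, and for Cd24a (0.55) both groups were near background. Tfrc read 11.07, 10.93 and 10.97 in TMem alone and 11.08, 11.02 and 10.88 in TMem mix (0.00, 95% interval -0.19 to 0.20). Alternatives called Cd7 in 4 of 16, Cd69 in 3 and Cd24a in 1, with an adjusted p of 2.62e-04 to 0.501, 0.00472 to 0.845 and 0.0293 to 1.00. The effect of mixing in TMem was called different between 96 h and 18 h for 0 of 7 genes by limma, beside 0.196% of all genes, and 0 had an unadjusted p under 0.05, beside 5.11%.

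**Figure D2:**
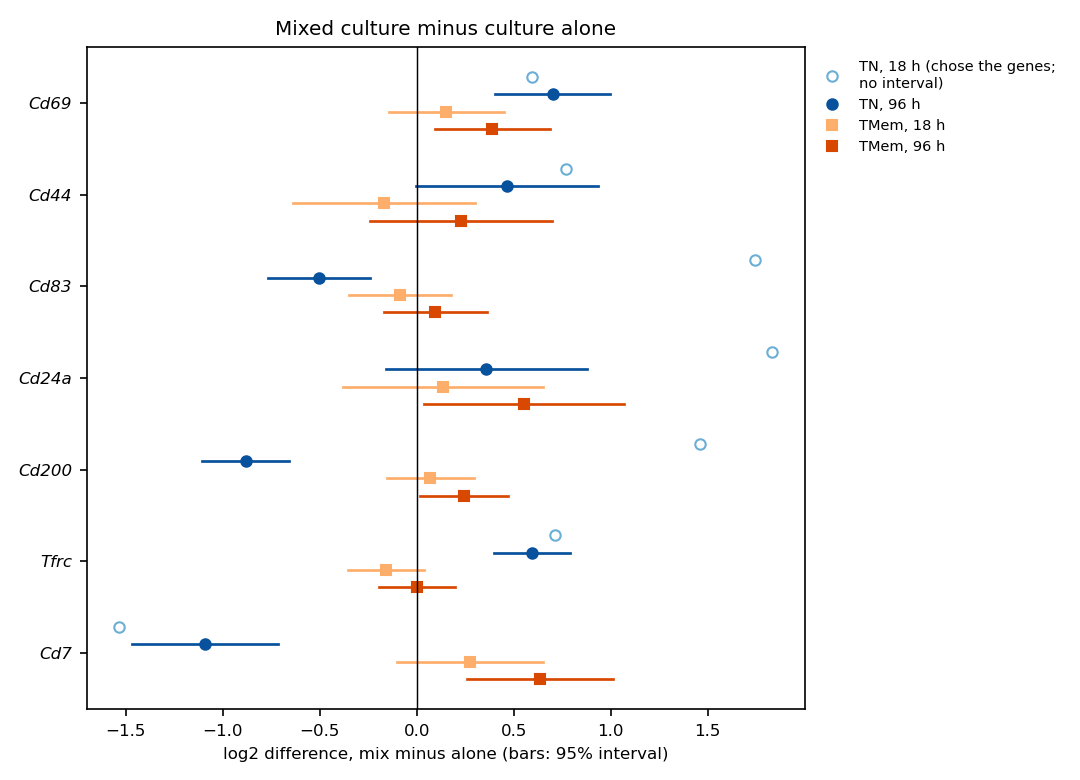
Log2 difference between mixed culture and culture alone (horizontal axis) for each of the 7 genes, in TN and TMem cells at 18 h and 96 h, with unadjusted 95% intervals for the tested differences. The TN values at 18 h took part in the selection and have no interval. In TN cells Cd83 and Cd200 stood at 1.74 and 1.46 at 18 h and at -0.50 and -0.88 at 96 h, and Cd7 stood at -1.09 in TN and 0.63 in TMem cells at 96 h.

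The effects of mixing in the cell types at 96 h were then set against each other. The effect in TN minus that in TMem was called for 3 of 7 genes, 1 higher and 2 lower, beside 1.92% and 1.62% of all genes and 3.54% in either direction. It was -1.73 for Cd7 (SE 0.26, limma adjusted p = 9.37e-05) and -1.12 for Cd200 (SE 0.16, limma adjusted p = 2.90e-05). For Tfrc it was 0.59 (SE 0.13, limma adjusted p = 0.00844), and this call was lost with arrays centred on their medians (0.52, adjusted p = 0.0887). For Cd83 it was -0.60 (95% interval -0.97 to -0.23, limma adjusted p = 0.0658), which 8 of 22 alternatives called, among them those without TMem alone repeat 2 (adjusted p = 0.0452) and without TMem mix repeat 3 (adjusted p = 0.0419). The values of Cd69 (0.31), Cd44 (0.23) and Cd24a (-0.19) were not called. For 3 of the 5 mast cell and basophil markers the effect of mixing was lower in TN than in TMem too, and their part was not tested.

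The same difference gives how far TMem and TN cells stood apart in each culture. Alone at 96 h, 2 of 7 genes were higher in TMem and 4 lower, beside 14.1% and 8.02% of all genes and 22.2% in either direction. In mixed cultures 1 was higher and 4 were lower, beside 6.68% and 3.94% and 10.6%. Cd7 differed by -2.59 alone (SE 0.18, limma adjusted p = 1.22e-11) and by -0.86 mixed (SE 0.18, limma adjusted p = 0.00153). Cd200 differed by -1.60 alone, with TMem near background, and by -0.48 mixed. Tfrc differed by 0.56 alone and by -0.03 mixed (95% interval -0.23 to 0.16). For these 3 genes the distance was smaller in mixed cultures, by the test of the difference above, in which the Tfrc call was lost with centring. The Y-linked Eif2s3y at 96 h lay at 4.13 to 4.20 in TN alone and 7.34 to 7.89 in TN mix. It lay at 9.22 to 9.33 in TMem alone and 8.87 to 9.51 in TMem mix. TN mix thus lay between TN alone and TMem in this transcript too, and the part of its source in these distances was not tested. Cd44 differed by 1.73 and 1.497 and Cd24a by -1.95 and -1.75, with TMem near background in both cultures for Cd24a. Cd83 differed by -0.68 alone and by -0.08 mixed. Cd69 differed by -0.22 alone, without a call, and by -0.53 mixed (limma adjusted p = 0.0137), a call lost without TN mix repeat 3 (adjusted p = 0.0517) or TMem mix repeat 3 (adjusted p = 0.0548). The mixed call of Cd200 was lost with arrays quantile normalized again (adjusted p = 0.056). Transcripts of other cells differed as well between TMem and TN alone at 96 h. Of the mast cell and basophil markers 4 of 5 were lower in TMem, among them Cpa3 (-1.88) and Kit (-1.34), with mean levels of 5.81 to 5.87 against 6.67 to 6.95 in TN. Of the erythroid and platelet markers 3 of 5 were lower, with mean levels of 6.17 to 6.24 against 6.60 to 6.74, and Lyz2 (-2.84), Cd79b (-1.99) and Foxp3 (-2.22) were lower too. Fcer1g (1.05) and the NK cell markers Klrb1c (1.82) and Klre1 (1.62) were higher, while 2 of the 5 NK cell markers were lower. Of the 4 CD4 T cell markers 1 was higher. In mixed cultures 0 of the 5 mast cell and basophil markers and 0 of the 5 erythroid and platelet markers were called. There 2 of the 5 NK cell markers were higher in TMem and 0 lower, and of the 4 CD4 T cell markers 1 was higher and 1 lower. Of the 7 B cell markers 1 was lower, and of the 12 markers of macrophages, monocytes, dendritic cells and neutrophils 1 was higher. The part of these transcripts in the distances was not tested.

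**Figure D3:**
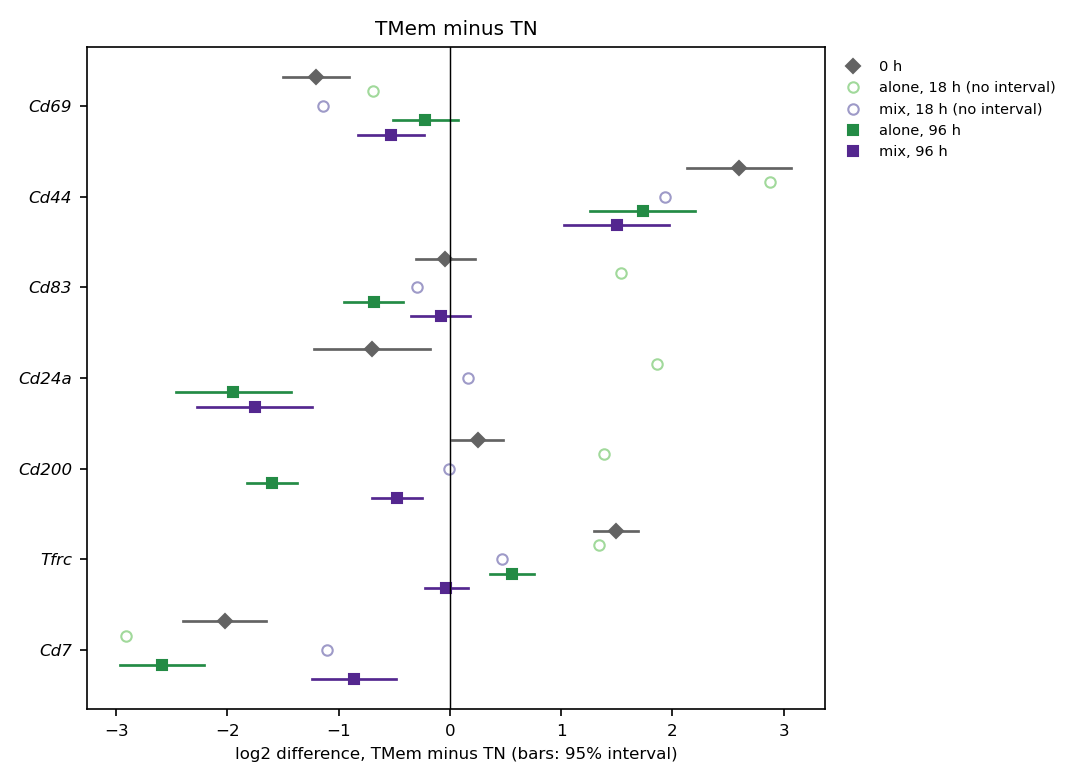
TMem minus TN (log2 difference, horizontal axis) for each of the 7 genes at 0 h, and at 18 h and 96 h in cultures alone and mixed, with unadjusted 95% intervals for tested differences. Differences at 18 h are described without an interval. At 18 h Cd83, Cd24a and Cd200 stood at 1.54, 1.86 and 1.39 alone and at -0.29, 0.16 and -0.00 mixed.

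At 18 h the distances between the cell types are a description. In cultures alone 7 of 7 genes had groups without overlap, beside 45.7% of all genes, and in mixed cultures 6 of 7, beside 37.3%. Alone, Cd83, Cd24a and Cd200 were higher in TMem by 1.54, 1.86 and 1.39, and mixed the differences were -0.29, 0.16 and -0.00. Cd200 read 9.34, 9.35 and 9.37 in TMem alone, 9.36, 9.48 and 9.44 in TMem mix and 9.50, 9.30 and 9.50 in TN mix. For Cd200 2 of the TN mix arrays thus lay above and 1 below all 6 TMem arrays, while TN alone, at 7.83 to 8.10, lay below all of these. Cd7 differed by -2.91 alone and -1.10 mixed, Cd44 by 2.87 and 1.93, Tfrc by 1.34 and 0.47 and Cd69 by -0.69 and -1.14. Cd69 is the gene for which the distance was larger in the mixed cultures.

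Before stimulation, 2 of 7 genes were higher in TMem than in TN and 3 lower, beside 18.4% and 17.5% of all genes and 35.9% in either direction. Cd44 read 5.87, 6.25 and 6.26 in TN and 9.37, 9.04 and 7.77 in TMem, and was higher in TMem by 2.60 (SE 0.23, limma adjusted p = 2.99e-10). Tfrc read 9.09, 8.97 and 8.98 in TN and 10.58, 10.31 and 10.63 in TMem, and was higher by 1.49 (SE 0.10, limma adjusted p = 3.97e-13). For both genes every TMem array lay above every TN array, although the TMem values of Cd44 spread widely. Cd7 read 11.91, 11.998 and 12.04 in TN and 9.41, 9.72 and 10.75 in TMem, a difference of -2.02 (SE 0.18, limma adjusted p = 5.15e-10). Cd69 read 11.57, 11.21 and 11.19 in TN and 10.16, 9.60 and 10.59 in TMem, a difference of -1.20 (SE 0.14, limma adjusted p = 9.16e-08). Cd69 was thus higher in the naive cells before any stimulus. Cd24a differed by -0.70 (limma adjusted p = 0.0299), with overlap and TMem near background, and this call was lost in 5 of 15 alternatives, among them those without TN alone repeat 1 (-0.52) and without TMem alone repeats 1 (-0.70) or 2 (-0.28), with an adjusted p of up to 0.383. Cd83 (-0.04) and Cd200 (0.25) were not called, the latter at an adjusted p of 0.083, which was 0.0488 without TN alone repeat 2 and 0.00966 without TMem alone repeat 1. At 0 h 3 of the 5 mast cell and basophil markers were higher in TMem, with mean levels of 6.38 to 7.11 against 5.62 to 5.89 in TN. Of the erythroid and platelet markers 3 of 5 were higher, Ppbp (2.00), Pf4 (1.26) and Itga2b (0.29), with mean levels of 7.12 to 7.23 against 6.41 to 6.66, and Foxp3 (0.76) was higher too. Their part in these differences was not tested.

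After stimulation for 18 h, 6 of 7 genes were higher and Cd7 lower in TMem alone than at 0 h, beside 18% and 17.3% of all genes and 35.3% in either direction. Cd24a rose by 3.26 (SE 0.25), from near background, Cd200 by 2.94 (SE 0.11) and Cd83 by 2.93 (SE 0.13), each more than 7.6-fold. Cd44 rose by 2.19 (SE 0.23), Cd69 by 1.08 (SE 0.14) and Tfrc by 0.80 (SE 0.10), and Cd7 fell by 2.88 (SE 0.18). The limma adjusted p was at most 5.32e-07, and none of the groups overlapped, which was so for 43.5% of all genes. Of the mast cell and basophil markers 4 of 5 were lower at 18 h, with Cpa3 at -3.48 and mean levels of 5.50 to 5.52 against 6.38 to 7.11 at 0 h. Of the erythroid and platelet markers 3 of 5 were lower, Ppbp (-3.12), Pf4 (-1.22) and Itga2b (-0.44), with mean levels of 6.10 to 6.25 against 7.12 to 7.23. The part of these transcripts was not tested. In TN alone, as a description, the 7 genes went in the same directions by 18 h without overlap, beside 42.4% of all genes. The TN differences were 1.92 for Cd44, 1.80 for Cd200, 1.35 for Cd83, 0.96 for Tfrc, 0.70 for Cd24a, 0.57 for Cd69 and -2.00 for Cd7.

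The high levels of Cd83, Cd24a and Cd200 at 18 h in TMem alone, TMem mix and TN mix were not found at 96 h. In TN alone Cd24a stood at 7.18 at 18 h and 6.97 at 96 h, with overlap. In TMem alone, 6 of 7 genes fell between 18 h and 96 h and 0 rose, beside 9.87% and 14.6% of all genes and 24.4% in either direction. The differences were -4.02 for Cd24a, -3.69 for Cd83 and -3.60 for Cd200. For Cd24a (5.02 ± 0.28) and Cd200 (5.76 ± 0.06) the level at 96 h was near background, so these falls are lower bounds. Cd44 fell by 1.64, Cd69 by 0.96 and Tfrc by 0.32, the last at an adjusted p of 0.0122 in limma that went to 0.0576 without TMem alone repeat 2 at 96 h. In TMem mix 5 of 7 fell and 0 rose, beside 11.5% and 16.1% of all genes and 27.6% in either direction, with Tfrc (-0.16) and Cd7 (0.16) not called. Of the mast cell and basophil markers 2 of 5 were higher at 96 h in each of these TMem comparisons, and their part was not tested. In TN cells, as a description, Cd83 went by -1.47 alone and -3.71 mixed, Cd200 by -0.61 and -2.95 and Cd24a by -0.21 and -1.68. In both TN comparisons of 96 h with 18 h, 6 of 7 genes had groups without overlap, beside 42% of all genes alone and 43.9% mixed. The gene with overlap was Cd24a alone and Cd7 mixed. Tfrc was the gene that was higher at 96 h in both, by 0.46 and 0.34.

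Against 0 h, TN alone at 96 h had 3 of 7 genes higher and 2 lower, beside 18.6% and 17.9% of all genes and 36.4% in either direction. Cd44 (1.43), Tfrc (1.42) and Cd200 (1.19) were higher and Cd7 (-2.52) and Cd69 (-0.86) lower, with a limma adjusted p of at most 1.62e-05. Of the mast cell and basophil markers 3 of 5 were higher in TN alone at 96 h too, from mean levels of 5.62 to 5.89 at 0 h, and their part was not tested. In TMem alone at 96 h 1 of 7 genes was higher and 4 were lower than at 0 h, beside 16.1% and 8.44% and 24.5%. Tfrc was higher (0.48), and Cd7 (-3.08), Cd83 (-0.76), Cd200 (-0.66) and Cd24a (-0.76) were lower. Cd24a was near background at both times and Cd200 at 96 h. Of the mast cell and basophil markers 4 of 5 were lower at 96 h in TMem alone too, among them Cpa3 (-2.71) and Fcer1a (-1.15), and of the erythroid and platelet markers 3 of 5, among them Ppbp (-3.08). Their part was not tested. Cd200 was thus above its starting level in TN cells at 96 h and below it in TMem cells. The call of Cd24a was lost in 7 of 15 alternatives, among them those without TMem alone repeats 1 or 3 at 0 h and without repeats 1 or 3 at 96 h (adjusted p up to 0.294). Cd44 (0.56, limma adjusted p = 0.079) was not called but was without TMem alone repeat 1 (0.88, adjusted p = 0.003) or repeat 2 (0.71, adjusted p = 0.0423) at 0 h, and Cd69 (0.12, limma adjusted p = 0.611) was without repeat 3 (0.36, adjusted p = 0.0384).

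The order of the groups differed between the genes. Cd69 went from 12.49 in TN mix at 18 h down to 10.12 in TMem alone at 0 h, and TN alone at 0 h (11.32) lay between TMem mix (11.35) and TMem alone (11.20) at 18 h, with overlap to both. Cd44 spanned 27.8-fold, from 10.92 in TMem alone at 18 h to 6.13 in TN alone at 0 h, and TN mix at 18 h (8.82) overlapped TMem alone at 0 h (8.73). Tfrc spanned 4.92-fold, from 11.31 in TMem alone at 18 h to 9.01 in TN alone at 0 h. For Tfrc the values of TN mix (11.02), TMem mix (10.99) and TMem alone (10.99) at 96 h overlapped, above TN alone at 96 h (10.43). Cd7 spanned 34.4-fold, from 11.98 in TN alone at 0 h to 6.88 in TMem alone at 96 h, and TN alone at 18 h (9.99) overlapped TMem alone at 0 h (9.96). Cd83 spanned 14.9-fold, and Cd24a at least 17.8-fold and Cd200 at least 12.8-fold, as their lowest group was near background. These 3 genes had TN mix, TMem alone and TMem mix at 18 h as their highest groups, with overlap between neighbours in the order, and TMem alone at 96 h as their lowest.

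Pearson's r over the 10 group means, given as a description since groups share cell type and time, was 0.97 between Cd83 and Cd200, 0.94 between Cd24a and Cd200 and 0.91 between Cd83 and Cd24a. It was 0.85 between Cd44 and Tfrc, -0.94 between Tfrc and Cd7 and -0.86 between Cd44 and Cd7. Cd69 had an r of 0.66 to 0.71 with Cd83, Cd24a and Cd200 and of -0.04 with Cd44. Among all genes the profile most like that of Cd83 was Zbtb10 (0.98), of Cd200 Cnih4 (0.98) and Stat5a (0.98), of Cd24a Scfd1 (0.96) and of Cd69 Polr3b (0.95). For Cd44 these were Otud7b (0.98) and Plek (0.98), for Tfrc Zdhhc21 (0.99) and Ppp2r5d (0.99), and for Cd7 Ypel3 (0.99) and Ccm2 (0.99).

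Other surface antigens of T cell activation and differentiation were compared in the same groups. Of 33 measured, 7 rose and 4 fell in TN mix relative to TN alone at 96 h, beside 7% and 3.62% of all genes, with a median difference of 0.07 beside 0.05 for all genes. Cd28, a costimulatory receptor, rose by 0.69 and Cd82, a tetraspanin, by 0.52, while Cd80, a ligand of CD28, fell by 1.497 and Il7r, which binds the survival cytokine IL-7, by 1.19. In TMem mix relative to TMem alone at 96 h 6 of the 33 rose and 0 fell, beside 0.968% and 0.15% of all genes, among them Cd81, a tetraspanin (0.86), Cd27, a costimulatory receptor of the TNF receptor family (0.78), and Cd28 (0.61). The effect of mixing at 96 h was higher in TN than in TMem for 1 of the 33 and lower for 6, beside 1.92% and 1.62% of all genes, with Cd80 (-1.64), Il7r (-1.77) and Cd81 (-1.22) among the latter. At 0 h 14 were higher and 12 lower in TMem than in TN, beside 18.4% and 17.5% of all genes. Il2ra, a chain of the IL-2 receptor, was higher by 4.42 there and Cd1d1, which presents lipids, was lower, at -2.08.

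Ligands and partners of the 7 proteins, with related genes, made a list of which 22 genes were measured. Of these 2 rose and 7 fell in TN mix relative to TN alone at 96 h, beside 7% and 3.62% of all genes. Their median difference was 0.03, beside 0.05 for all genes. S1pr1, whose product CD69 binds, fell by 1.15 in the comparison in which Cd69 rose by 0.70. H2-Aa, a chain of MHC class II, fell by 2.83 and Cd74, the invariant chain that assembles with class II, by 1.83, in the comparison in which Cd83 fell. Markers of other cells fell in that comparison too, among them Lyz2 (-2.79), Fcer1g (-1.36) and Cd79b (-0.70), and none was called higher. The part of other cells in the falls of H2-Aa, Cd74 and Cd83 was not tested. Sectm1a rose by 0.45, and Ezr, which links CD44 to the cytoskeleton, by 0.34. In TMem mix S1pr1 was higher by 0.535 at 96 h, and the difference of its effects was -1.69 (limma adjusted p = 3.43e-10). Cd69 was higher in TMem mix there as well (0.39), without a call. The 2 genes also went the same way at 0 h, where both were lower in TMem than in TN (S1pr1 -0.86, Cd69 -1.20). Both were lower in TN alone at 96 h than at 0 h too (-1.22 and -0.86). In TMem alone at 18 h against 0 h, 3 of the 22 rose and 9 fell, beside 18% and 17.3% of all genes. S1pr1 fell by 1.88 and Klf2, a factor that drives its transcription, by 1.08, while Cd69 rose.

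Genes of iron uptake, storage and control were compared beside Tfrc. Of 23 measured, 4 rose and 1 fell in TN mix relative to TN alone at 96 h, beside 7% and 3.62% of all genes, with a median difference of 0.01 beside 0.05. Aco1, which binds Tfrc mRNA when iron is scarce, rose by 0.61, Hmox1, which frees iron from heme, by 0.89 and Slc11a2, an iron transporter of endosomes, by 0.44. Ftl1, a chain of the iron store ferritin, fell by 0.27. The effect of mixing at 96 h was higher in TN than in TMem for 2 of the 23, Hmox1 (1.199) and Aco1 (0.52), and lower for 0, beside 1.92% and 1.62% of all genes. In TMem alone at 18 h against 0 h 9 rose and 2 fell, beside 18% and 17.3% of all genes, with Myc, a factor known to raise Tfrc transcription, higher by 1.35 and Fth1, the other ferritin chain, lower, at -0.56. At 0 h 8 were higher and 4 lower in TMem than in TN, beside 18.4% and 17.5% of all genes, with Myc higher by 0.92.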

How the data were processed

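The 30 samples were measured on Affymetrix mouse gene arrays. Values are the log2 levels of probe sets as deposited, for which the submitters' processing notes name RMA and Partek, with version and order not given in the sources used here. Of 35556 rows 21789 named 1 gene, and the row with the highest mean stood for a gene with several, leaving 19938 genes. One limma 3.58.1 model (R 4.3.3) with a mean per group was fitted to all arrays (20 residual degrees of freedom). Contrasts were tested 2-sided, adjusted by Benjamini-Hochberg over all genes and called at an adjusted p under 0.05. SE and unadjusted 95% intervals are those of the moderated fit. Contrasts with TN cells at 18 h were not tested. The 7 genes, the gene lists and the tests were chosen with earlier results of these data known. Of 132 listed genes 119 were measured, and the others are not analysed here. From each list the text names up to 3 called genes with the smallest adjusted p in each direction, and for each of the 7 genes up to 3 with the highest correlation of group means. On simulated data for TN mix minus TN alone, 96 h, 61.2% of 67 genes with a log2 difference of 0.5 and 100% of 67 with 1 were recovered. The simulated errors were independent between arrays, and 182 genes were called there, against 2117 in the data. These shares thus check the procedure and do not give the recovery in the data, nor that for genes with a large spread. The precision is limited by 3 arrays per group, for which an exact permutation test cannot give less than p = 0.1. Alternatives were another quantile normalization, centring, a filter on low values, moderation with trend, array weights, fewer groups in the fit, the mean of a gene's rows, the replicate block and leaving out each array. Repeat numbers come from the labels. Same-numbered repeats of TN mix and TN alone at 96 h deviated together (correlation of deviations 0.489, 0.312 and 0.137). In none of the other tested comparisons of 2 groups were all 3 over 0.1. The reported tests are unpaired, as the model has no replicate block, and pairing enters only the alternatives with the block.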

Additional observations from a re-analysis of the deposited data

Results flagged for a closer look

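The effects of mixing at 96 h differed between TN and TMem cells for 3 of the 7 genes by the test of the difference itself. The effect in TN minus that in TMem was -1.73 for Cd7, -1.12 for Cd200 and 0.59 for Tfrc. TN mix and TN alone at 96 h also differed in Y-linked transcripts and in markers of mast cells and basophils, whose part in these values was not tested.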

How the results depend on the processing

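Of 91 tested results for single genes 52 were called. Of these 45 kept their call and direction under every one of 15 to 22 alternatives, and 0 reversed. Of the 39 that were not called, 27 were called under none. In TMem mix against TMem alone at 96 h, where 0 of 7 genes were called, array weights called 3, a fit of only the groups compared 2, a fit without the 0 h arrays 2, and the replicate block in a fit of only the groups compared 1. The last 2 settings were added with the data in view. The replicate block in the fit of all groups left every count as reported (5 of 7 in TN mix against TN alone, 96 h). With the block and only the groups compared it was 7 there, 4 for TMem against TN at 0 h and for TMem alone at 96 h against 0 h, 7 for TMem alone against TN alone at 96 h, 4 for the difference of mixing effects at 96 h, and as reported elsewhere, apart from the 1 above.

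Without 1 array at a time, counts of called genes were 4 to 5 for mix against alone in TN cells at 96 h, 4 to 6 for TMem against TN at 0 h, 4 to 6 for TMem alone at 96 h against 0 h, 5 to 6 at 96 h against 18 h, 4 to 5 for TMem mix against TN mix at 96 h and 3 to 4 for the difference of mixing effects, and as reported in the others. Centring arrays on their medians moved the described median of the 7 genes from -1.33 to -1.53 in TN mix at 96 h against 18 h, and from -0.00 to -0.13 in TMem mix against TN mix at 18 h, where array medians differed by 0.20 and 0.12. In TMem against TN at 0 h they differed by 0.10.

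Counts over all genes also moved by over 1.5 times. For mix against alone array weights called 6343 in place of 2117 in TN at 96 h, 100 in place of 6 in TMem at 18 h and 906 in place of 223 in TMem at 96 h. They called 7546 in place of 4868 for TMem alone at 96 h against 18 h, 8205 in place of 4420 and 4909 in place of 2117 for TMem against TN at 96 h alone and mixed, 3202 in place of 705 for the difference of mixing effects and 330 in place of 39 for the change of the mixing effect in TMem from 18 h to 96 h. A fit of only the groups compared called 4091 in place of 7151 for TMem against TN at 0 h, 6699 in place of 4420 for TMem against TN alone at 96 h, 36 and 435 for mix against alone in TMem at 18 h and 96 h, 1185 for the difference of mixing effects and 196 for that change in TMem. With the block as well these counts were 4423, 6587, 42, 118, 1091 and 139, and 1273 in place of 2117 for TMem against TN mixed at 96 h. Without the 0 h arrays 3208 were called for mix against alone in TN at 96 h, 41 and 507 in TMem, 1422 for the difference of mixing effects and 190 for the change in TMem. The change in TMem had 61 with arrays quantile normalized again, and mix against alone in TMem at 18 h had 10 with centring. Without 1 array, counts were 1 to 6 and 105 to 170 for mix against alone in TMem at 18 h and 96 h and 18 to 29 for the change in TMem.

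Signs that turned belonged to differences near 0 that were not called. For Tfrc in TMem mix against TMem alone at 96 h the difference was -0.00397 with arrays quantile normalized again, -0.0129 with array weights and -0.0393 to 0.0587 without 1 array. For Cd83 in TMem against TN at 0 h it was 0.238 with array weights and -0.185 to 0.0897 without 1 array. For Cd69 in TMem alone at 96 h against 0 h it was -0.0144 with arrays quantile normalized again and -0.136 to 0.36 without 1 array. Without 1 array it also ran from -0.0348 to 0.255 for Cd24a in TMem mix against TMem alone at 18 h, from -0.026 to 0.191 for Cd83 in that comparison at 96 h, from -0.212 to 0.014 for Cd83 in TN alone at 96 h against 0 h, and from -0.205 to 0.0112 for Cd83 and -0.168 to 0.059 for Tfrc in TMem mix against TN mix at 96 h. The cause was not tested.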
